A study of Mus musculus with 3 samples.

Results

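*Ltf*, *Camp*, *Ngp*, *Lcn2*, *Chil3*, *Lyz2*, *Pglyrp1*, *Hp* and *Cd177* are 9 genes whose products are stored in the specific (secondary) granules of neutrophils, and they were taken as a given list from the 27998 genes counted in single CD133+ cells of mouse bone marrow. CD133 is the membrane protein encoded by *Prom1*, and the study sorted these cells as candidate endothelial progenitors. The 3 droplet libraries, called young, old and control after their labels, were made from untreated C57BL/6 mice with no transgene named, and each pooled the cells of 3 mice. Young and control mice were 3 months old, and the old mice were 27 months old by their sample label and 18.5 months old by the text of the series. That text also calls the cells intestinal, whereas every sample label gives bone marrow, and the labels do not say what sets control apart from young. With 1 library per group, there was no spread between samples and no test could be made, so age, mouse, sort and library cannot be told apart, and all intervals given cover counting error only.

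The libraries held 8362 to 10869 cells and 81434722 to 138030352 unique molecular identifiers (UMIs, counted RNA molecules), with medians of 9560 UMIs per cell in control, 9719.5 in young and 13039 in old. After filtering, 9692 control, 6594 young and 9617 old cells of the neutrophil line remained, and groups of other blood cells were set aside (76, 778 and 64 cells). Between 120 and 161 cell barcodes were shared by each pair of libraries, at most 1.52% of the smaller one. A level is the number of UMIs that a gene contributed to every 1000000 UMIs of these cells, abbreviated CPM. Each molecule was counted once at its 3′ end, so levels need no scaling for gene length. The sorted cells were checked against their markers. *Prom1* stood at 52.7 CPM in control, 47.2 in young and 45.9 in old cells of the neutrophil line. Over all deposited cells, with nothing set aside, the 7 endothelial markers summed to 2.0003 CPM in control, 4.89 in young and 3.37 in old, with 0 of 7 at 10 CPM. Of the cells set aside, the 51 young dendritic cell-like cells held 3 of the 7 at 10 CPM or more (*Cdh5*, *Pecam1* and *Kdr*, summed level of the list 219.6). The 5 promyelocyte markers summed to 15121, 14155 and 11344 CPM over all deposited cells, and the 5 markers of maturing neutrophils to 751, 1576 and 2041, each with 5 of 5 at 10 CPM.

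Neutrophils make their granules in succession. Promyelocytes fill azurophil granules with myeloperoxidase (*Mpo*) and serine proteases such as *Elane*. Later precursors fill specific granules with antimicrobial and nutrient-binding proteins, and maturing cells add gelatinase granules with *Mmp9*. Proteins made at the same time end up in the same granule, and the transcription factor C/EBPε (*Cebpe*) is required for specific granules. Among the 9 genes, *Camp* encodes the cathelicidin precursor of an antimicrobial peptide and *Ngp* a cystatin-like granule protein, *Ltf* encodes iron-binding lactoferrin and *Lcn2* the siderophore-binding lipocalin. *Lyz2* and *Pglyrp1* encode proteins that cleave or bind bacterial peptidoglycan. *Hp* encodes haptoglobin, which binds free haemoglobin, *Chil3* a chitinase-like lectin, and *Cd177* a surface glycoprotein of the granule membrane. *Lyz2* is also a major gene of monocytes and macrophages.

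On the mouse genome (GRCm38, GENCODE annotation) *Camp*, *Ngp* and *Ltf* lay within 1195 kb of chromosome 9. *Camp* (109847379 to 109849617, minus strand) and *Ngp* (110419747 to 110423012, plus strand) were separated by 570 kb that held 8 other protein-coding genes, and *Ngp* and *Ltf* (111019271 to 111042767, plus strand) by 596 kb that held 20. The others lay on chromosome 2 (*Lcn2*, 32384633 to 32388252), chromosome 3 (*Chil3*, 106147554 to 106167564), chromosome 10 (*Lyz2*, 117277331 to 117282321), chromosome 8 (*Hp*, 109575128 to 109579172) and chromosome 7 (*Pglyrp1*, 18871331 to 18890459, and *Cd177*, 24743983 to 24760311). None overlapped another annotated gene. *Chil3* shared 26.9% of its 50-base transcript windows with other genes, *Lyz2* 15.4%, *Cd177* 5.51% and *Pglyrp1* 2.67%, so that their counts are less certain than those of the other 5. The nearest copies were counted at low levels: *Lyz1* at 6.03, 10.4 and 4.59 CPM in control, young and old, and *Chil4* at 0.556, 0.619 and 0.504.

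The sequences just before the first annotated start are shown for 4 genes that carry the results below: *Camp*, whose level separated the libraries most in absolute terms, *Ngp*, similar in abundance, *Ltf*, the last to appear, and *Cd177*, the member with the highest ratio of old to young. They are RefSeq sequence of GRCm38.p6, read 5′ to 3′ on the gene's strand, and capitals mark matches to a C/EBP motif (TTNNGNAA or, on the other strand, TTNCNNAA), a PU.1 motif (AGGAAG or CTTCCT) or a TATA motif (TATAAA or TTTATA).
Camp, chr9:109849618-109849706, minus strand: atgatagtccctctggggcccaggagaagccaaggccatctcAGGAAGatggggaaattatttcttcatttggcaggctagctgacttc
Ngp, chr9:110419597-110419746, plus strand: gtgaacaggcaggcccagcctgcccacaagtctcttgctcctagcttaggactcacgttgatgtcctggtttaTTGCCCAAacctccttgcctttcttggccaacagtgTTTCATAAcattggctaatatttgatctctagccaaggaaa
Ltf, chr9:111019121-111019270, plus strand: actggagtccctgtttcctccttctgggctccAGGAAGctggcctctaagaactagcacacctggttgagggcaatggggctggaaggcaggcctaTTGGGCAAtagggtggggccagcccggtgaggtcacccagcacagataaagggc
Cd177, chr7:24760312-24760461, minus strand: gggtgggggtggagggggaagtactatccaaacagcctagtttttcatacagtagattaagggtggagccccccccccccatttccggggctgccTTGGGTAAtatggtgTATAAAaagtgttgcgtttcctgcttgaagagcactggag

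In the 250 bases before the RefSeq start, which the table held for 8 of the 9 genes, a C/EBP motif stood in 6 (all but *Camp* and *Pglyrp1*), against 36.8% of 32851 mouse promoters. A PU.1 motif stood in 6 (all but *Ngp* and *Cd177*), against 29.5% of promoters. *Cd177* was the member with a TATA motif, 40 bases before its start, against 12.4% of promoters. These are matches of letters and show no binding.

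The 9 genes together made up 14.95% of all UMIs in control cells of the neutrophil line, 14.8% in young and 13.1% in old. *Ngp* and *Camp* were the most abundant genes in every library after *S100a8* and *S100a9*. *Ngp* stood at 55959 CPM in control, 52933 in young and 53349 in old, and *Camp* at 52812, 57764 and 37229. *Ngp* made up 37.4%, 35.7% and 40.8% of the UMIs of the list and *Camp* 35.3%, 39.0% and 28.5%.

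The other members covered a wide range below them. *Lyz2* stood at 10754, 11514 and 9237 CPM (control, young, old), *Chil3* at 9524, 7449 and 7105, and *Lcn2* at 8211, 6658 and 9680. *Ltf* stood at 5083, 5357 and 6069, *Pglyrp1* at 4050.5 (95% Poisson interval 4038 to 4063), 4195 and 4438, and *Hp* at 2625, 1972 and 2802. *Cd177* was lowest, at 508 (504 to 513), 441 and 776. The order of neighbours that stood close depended on the library: *Lcn2* exceeded *Lyz2* in old and stood below it in the other 2 libraries. These differences exceed the counting intervals, but no spread between mice was measured.

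In single cells the list took a median of 17.8% of UMIs in control, 17.9% in young and 14.5% in old. The share passed 20% in 31.0% of control cells and 31.2% of young cells, and in 6.22% of old cells. In UMIs per cell the order turned, with 1471 in control, 1526 in young and 1616 in old, since old cells carried more UMIs.

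Cells were ordered by *Mpo* UMIs per 10000 to see when each gene came on. At 100 or more (288 control, 522 young and 94 old cells) the list held 24418 CPM in control, 20019 in young and 25391 in old. Between 10 and 30 it held 114067, 125416 and 96716, and under 3 it held 196616, 198043 and 160970. All 9 genes were thus higher in cells with under 10 than in cells with 100 or more *Mpo* UMIs per 10000 in each library. In every library, 8 of the 9, all but *Hp*, passed 1.5 times, where 11.7%, 9.39% and 12.2% of all genes tested in control, young and old did so in that direction.

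*Ltf* showed the largest ratio, 12.4 in control, 16.2 in young and 9.27 in old. *Ngp* (10.9, 14.4 and 8.40), *Lyz2* (10.6, 11.1 and 7.25), *Lcn2* (9.66, 13.1 and 6.45), *Cd177* (8.41, 11.3 and 4.86), *Camp* (7.21, 8.61 and 5.79) and *Chil3* (5.88, 10.9 and 5.27) lay close together. *Pglyrp1* (2.74, 2.68 and 2.48) and *Hp* (1.41, 1.39 and 1.27) differed least between the ends.

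A group of cells with high *Mpo* and a low UMI count stood apart in 2 libraries (103 control cells with a median of 5158 UMIs and 48 old cells with 5076, none in young). It held *Mpo* at 13354 and 11849 CPM together with *Camp* at 64879 and 70450, *Ngp* at 45281 and 75169 and *Hp* at 5415 and 7947, while *S100a8* stood at 41.2% and 31.9% of the level of all cells of the line. Mitochondrial genes took 6.77% and 8.22% of its UMIs, against 3.47% and 3.82% in all cells with 100 or more. Without this group, *Hp* reached 1.64 times in control and 1.60 in old, so that 9 of 9 members passed 1.5 times there, and it stayed at 1.39 in young. The ratios of the other 8 members were higher too without it, among them *Ltf* (12.9 in control and 9.46 in old) and *Chil3* (7.13 and 7.19). The crossing points below leave it out, a choice made after the groups were seen.

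The genes reached 50% of their level in low-*Mpo* cells (under 10 per 10000) at different *Mpo*. *Pglyrp1* crossed first, at 58.3 *Mpo* UMIs per 10000 in control, 81.7 in young and 65.5 in old. *Camp* was next in all 3 libraries, at 35.5, 51.5 and 36.8. *Lcn2* (12.8, 12.3 and 16.5) and *Ltf* (10.6, 10.3 and 7.76) crossed last in all 3, in that order.

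Between these, the order differed by library. *Chil3* crossed at 23.5, 18.5 and 21.3, *Ngp* at 18.9, 22.4 and 24.9, *Lyz2* at 13.2, 22.1 and 17.7, and *Cd177* at 17.6, 15.2 and 29.0 in control, young and old. At the 50% level, *Cd177* came ahead of *Ngp* in old, and after *Ngp* and *Chil3* in the other 2 libraries. No background was measured in old for its level at high *Mpo*, as given below. *Hp* never stood below 50%, and in cells with 100 to 140 *Mpo* UMIs per 10000 it was at 60.2%, 71.5% and 61.8% of its later level. *Ngp* and *Camp*, similar in abundance and both on chromosome 9, were apart in onset, with *Camp* at the higher *Mpo* in each library. These crossing points come from single libraries and carry no error between mice.

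**Figure D1:**
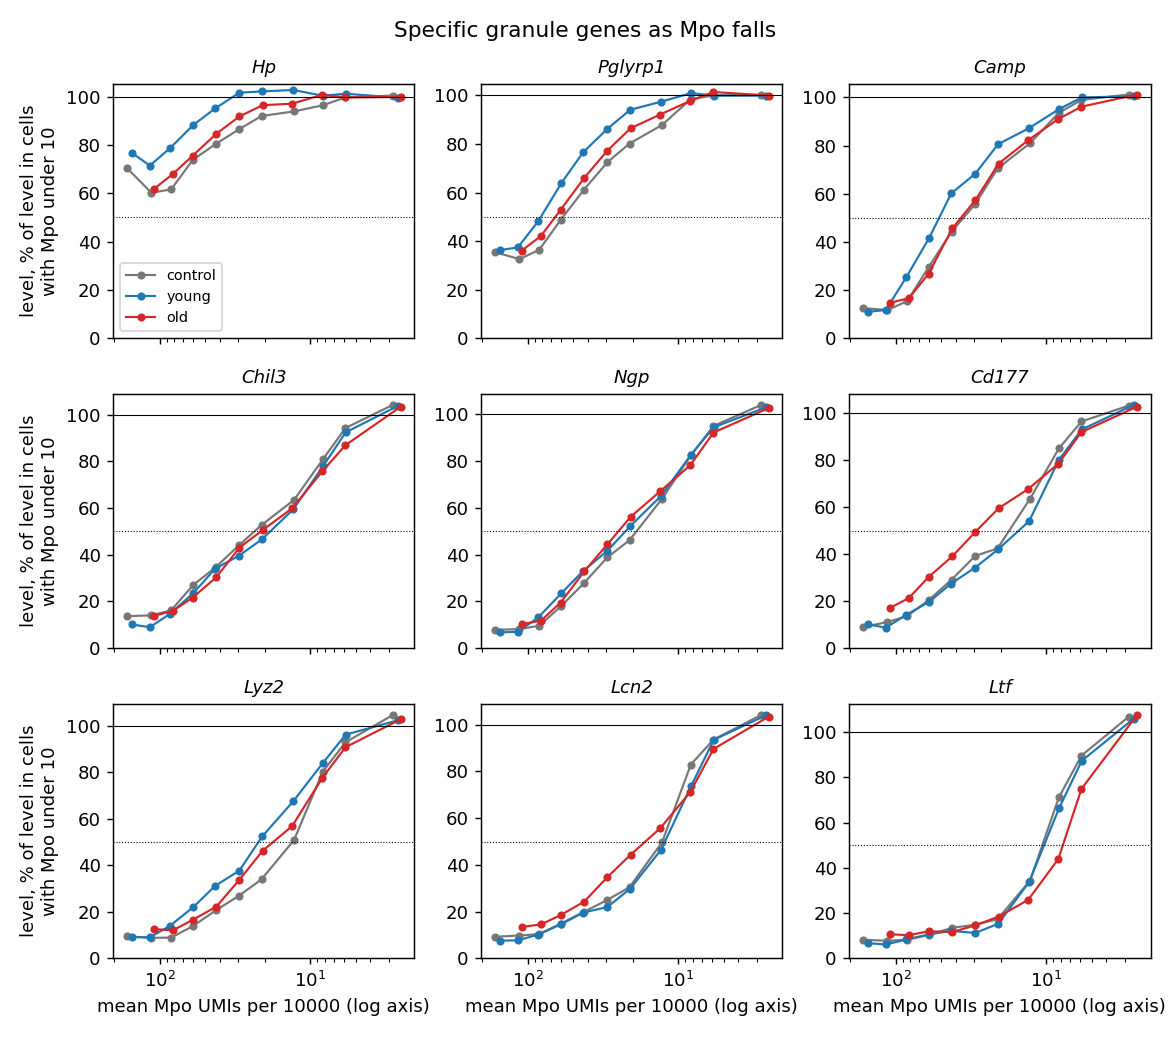
Level of each gene (y axis, percent of its level in cells with under 10 *Mpo* UMIs per 10000) against mean *Mpo* UMIs per 10000 (log axis, falling to the right) in intervals of at least 20 cells, 1 line per library, without the low-UMI group. *Pglyrp1* and *Camp* cross the dotted 50% line at the highest *Mpo* and *Ltf* at the lowest, and *Hp* stays above it.

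Single cells were compared after thinning to 3000 UMIs, with a gene counted as on at 10% or more of its mean in low-*Mpo* cells and *Mpo* taken from the thinned counts. *Camp* was on without *Ltf* in 1386 control, 923 young and 1075 old cells, and *Ltf* without *Camp* in 101, 93 and 46. *Ngp* was on without *Ltf* in 1126, 723 and 993 cells, and the reverse held in 187, 139 and 122. Not every pair followed the crossing points. *Lcn2*, which crossed after *Lyz2*, was on without it in 528 control and 394 old cells, against 301 and 125 for the reverse, and in 247 young cells against 360. *Ltf* was on without *Cd177* in 1588, 1195 and 951 cells and *Cd177* without *Ltf* in 640, 350 and 737, where the limit for *Cd177* was 1 UMI. *Ltf* was on in 24.3%, 21.9% and 48.8% of the 383, 547 and 125 cells at an *Mpo* of 100 or more and in 98.6%, 99.2% and 98.4% under 3. *Hp* was on in at least 96.2% of cells in every interval.

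Cells without neutrophil granules gave the background for these shares. In the young library, 56 cells resembling NK and T cells (median 8062 UMIs) carried *Camp* at 7983 CPM, *Ngp* at 7100.3, *Lyz2* at 2084 and *Ltf* at 831. Their levels were 13.4% to 22.2% of those in the neutrophil line for the 9 members, and 14.7% for *S100a8*. Against this, young cells with 100 or more *Mpo* (median 12179 UMIs) held *Camp* at 8334, *Ngp* at 4896, *Lyz2* at 1377 and *Ltf* at 469. Of the 9 genes, *Hp* (1491 against 319.6 CPM) and *Pglyrp1* (1790 against 933) stood well above the NK and T cell level in these earliest cells, *Camp* stood barely above it, and the other 6 lay below it. For these 7 genes, the values in the earliest young cells may include background, and their ratios to those cells then depend on it. The part of background was not tested, and the compared groups differed in median UMIs. Background was not subtracted from any level, ratio or crossing point.

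By the same limit, *Ltf* was on in 32.1% of the NK and T cell-like cells, above its 21.9% in young cells with high *Mpo*, and *Lcn2* in 44.6% against 38.4%. The 95% binomial interval for *Ltf* in those 56 cells ran from 20.3% to 46.0%. *Pglyrp1* was on in 71.4% against 92.0%, *Hp* in 57.1% against 96.2% and *Camp* in 33.9% against 45.5%. *Lyz2* was on in 26.8% against 44.8% and *Ngp* in 12.5% against 19.4%. *Chil3* (48.2% against 49.0%) and *Cd177* (12.5% against 14.1%) were nearly equal. In percentage points *Hp* and *Pglyrp1* thus differed most from the NK and T cell-like cells, followed by *Lyz2*. The difference depended on the group chosen. In the 31 basophil and mast cell-like cells of young, *Pglyrp1* was on in 90.3% (interval 74.2% to 98.0%) and *Hp* in 80.6%. In the 166 B progenitor-like cells of young they were on in 59.0% and 69.9%. Erythroid cell-like cells (67 cells) held all 9 genes at 8.72% to 13.2% of the neutrophil level and dendritic cell-like cells (51 cells) at 12.5% to 21.7%. No separate group of NK or T cells was found in control or old, so no such background was measured there. In control, the group of 76 cells named B progenitor-like was a mixture. Its summed markers were highest for basophils and mast cells (12101 CPM), against 829 for B progenitors and 386 for NK and T cells.

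Monocyte-like cells departed from this floor in a few genes. *Lyz2* stood at 19833 CPM in the 407 young and 18333 in the 64 old monocyte-like cells, 172% and 198% of the neutrophil line. *Hp* stood at 56.7% and 76.6%, and *Chil3* at 28.5% in young and 108% in old. The other 6 members lay between 19.5% and 32.7%. The 7 monocyte markers summed to 8.73, 28.2 and 14.4 CPM in the neutrophil line of control, young and old, with 0 of 7 at 10 CPM, and their part in the *Lyz2* values was not tested.

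**Figure D2:**
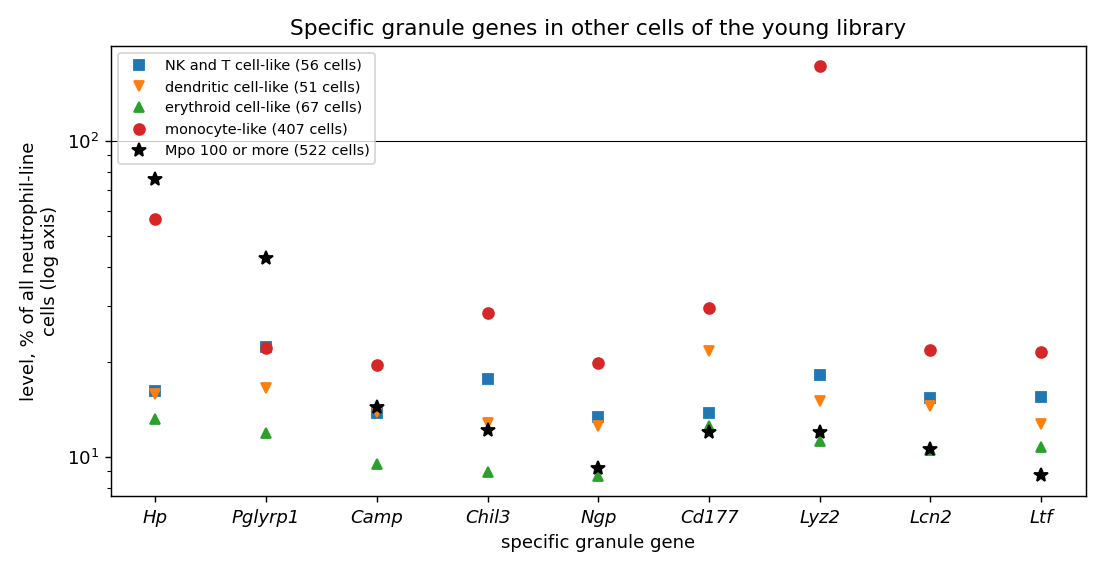
Level of each gene in 4 groups of other blood cells and in cells with high *Mpo* of the young library (y axis, percent of the level in all young neutrophil-line cells, log axis; line at 100%). *Lyz2* in monocyte-like cells lies at 172%, and the high-*Mpo* cells (stars) lie above the NK and T cell-like squares for *Hp*, *Pglyrp1* and, barely, *Camp*.

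Low-*Mpo* cells were split further by *Retnlg*, a gene of maturing neutrophils. The members peaked at different points and left the maximum to different degrees. *Chil3* stood lowest against its peak: in cells with 30 or more *Retnlg* UMIs per 10000 (249 control, 287 young, 1215 old) it stood at 6606, 5749 and 4403 CPM, 54.1%, 56.3% and 48.1% of its peak. *Camp* stood at 45986, 54157 and 26341, which was 69.7%, 72.4% and 58.0% of its peak, and *Ngp* at 70.9%, 80.3% and 77.4%.

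The other members differed in how far they stood below their maximum. *Pglyrp1* was at its peak in the last interval in all 3 libraries (5256, 5456 and 5590 CPM). *Cd177* stood at 94.2%, 97.8% and 100% of its peak, *Hp* at 91.3%, 100% and 100%, *Lcn2* at 81.8%, 83.6% and 89.8% and *Ltf* at 73.9%, 87.6% and 92.3%. *Lyz2* peaked between 10 and 30 *Retnlg* UMIs, at 22028, 18641 and 14257 CPM, and stood at 63.9%, 87.7% and 87.9% of that in the last interval. *Pglyrp1*, *Hp* and *Cd177* were thus closest to their peak in the last interval. The last cells held fewer UMIs than the rest (median 4520, 5068 and 7173), and the part of depth was not tested. In old, 17 cells had low *Mpo* and no *Retnlg*, so values in that interval rest on few cells.

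**Figure D3:**
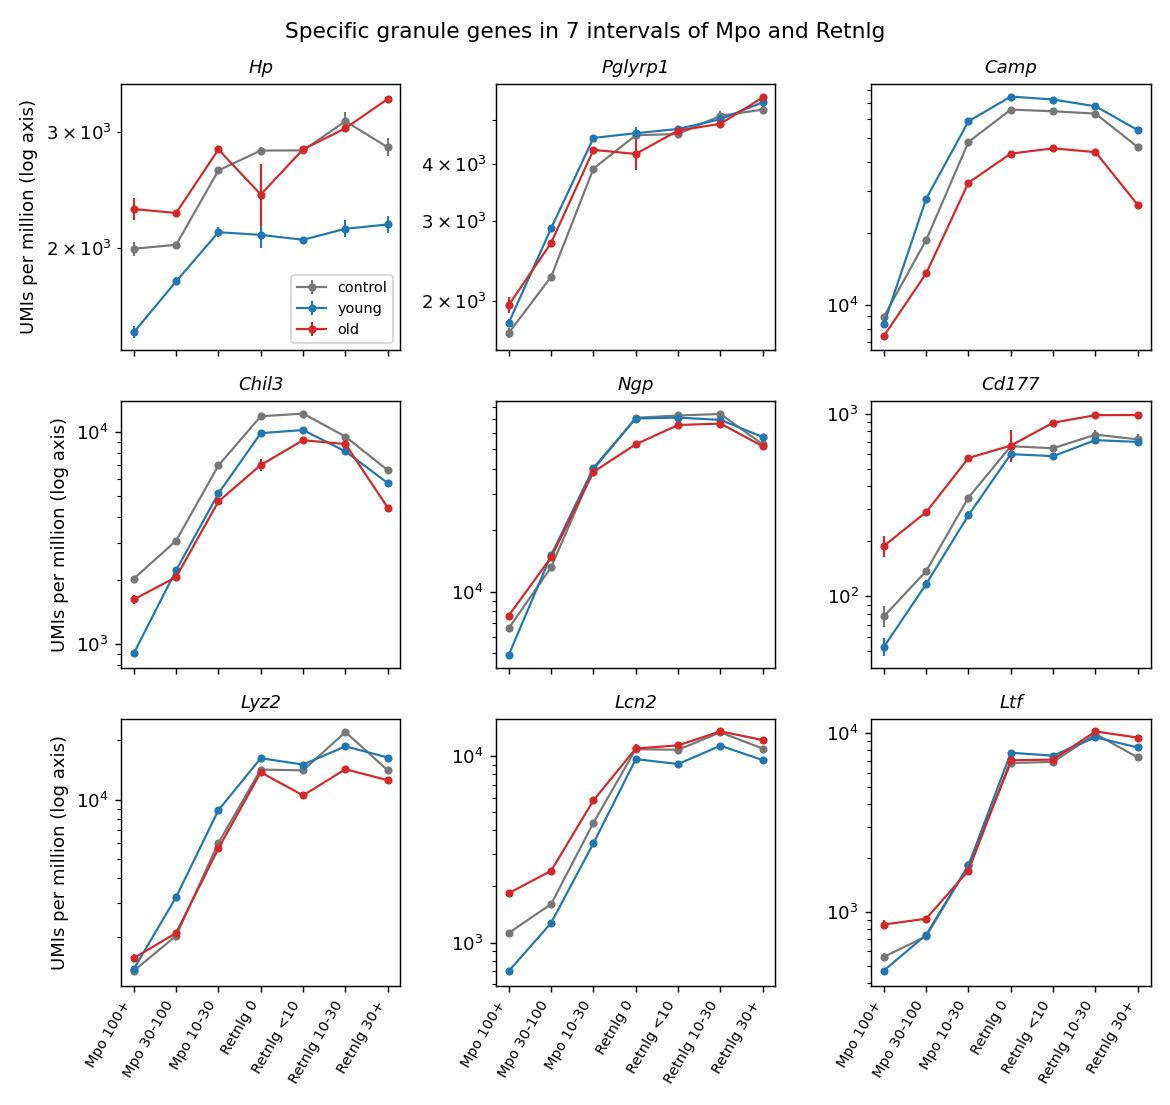
CPM of each gene (log axis) in 7 intervals, 3 of falling *Mpo* and 4 of rising *Retnlg* in cells with under 10 *Mpo* UMIs per 10000, with 95% Poisson intervals for counting error and 1 line per library. *Chil3* and *Camp* turn down in the last interval, *Pglyrp1* does not, and the old library lies lowest for *Camp* and highest for *Cd177* in every interval.

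Cells rich and poor in transcripts of dividing cells were compared within the same limits of *Mpo* and *Retnlg*. Maturation within these limits was not matched, and its part was not tested. Among cells with under 10 *Mpo* and under 10 *Retnlg* UMIs per 10000, those with 20 or more UMIs of 12 G2/M genes per 10000 (3397 control, 2316 young, 2800 old) were set against those with under 5 (934, 570 and 436). *Lyz2* differed most, at 10692 against 25115 CPM in control, 12332 against 23447 in young and 8182 against 19671 in old, or 0.43, 0.53 and 0.42 times. *Ltf* (0.73, 0.71 and 0.59) and *Lcn2* (0.70, 0.66 and 0.70) were lower in the G2/M-rich cells too.

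The other 6 genes lay between 0.88 and 1.11 times in all 3 libraries. *Cebpe* lay the other way, at 1.29, 1.32 and 1.37. In cells with 10 to 100 *Mpo* UMIs per 10000, *Lyz2* (0.66, 0.55 and 0.66) and *Ltf* (0.67, 0.45 and 0.60) were again lower in G2/M-rich cells in all 3 libraries. *Lcn2* was not uniformly so, at 0.93, 0.61 and 1.05. *Camp* stood at 1.46, 1.09 and 1.16 times there and *Ngp* at 1.36, 0.93 and 1.09. The G2/M-poor side of that interval held 166 control, 96 young and 21 old cells. Cells with few G2/M UMIs were shallower (median 6517.5 against 10042 UMIs in control, 6510 against 10978 in young and 10495.5 against 13948.5 in old), and the part of depth was not tested.

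**Figure D4:**
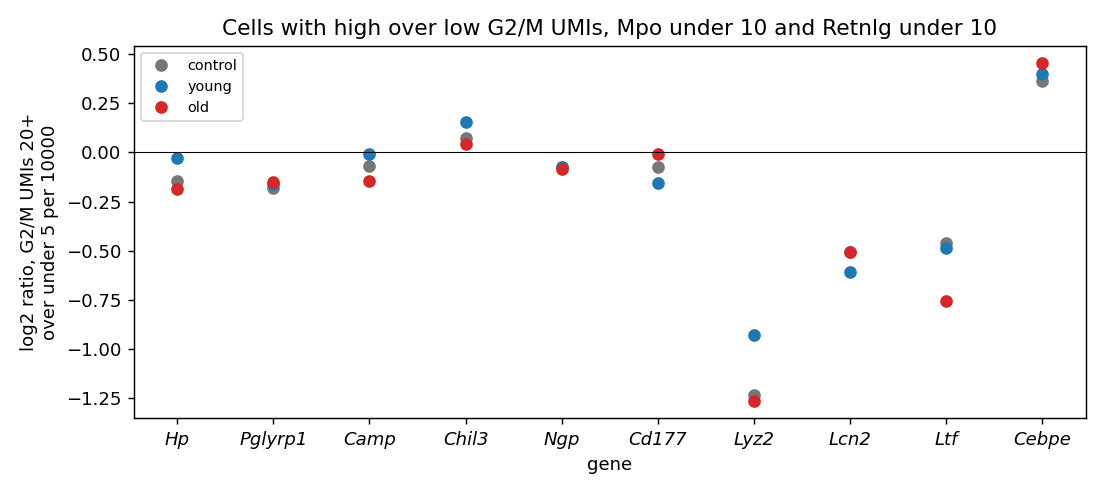
Log2 ratio of the level in cells with 20 or more over cells with under 5 G2/M UMIs per 10000 (y axis), for cells with under 10 *Mpo* and under 10 *Retnlg* UMIs per 10000, 1 point per library. *Lyz2*, *Ltf* and *Lcn2* lie below 0 in all 3 libraries, *Cebpe* lies above, and the other genes lie near 0.

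The libraries were then compared. Old against young asks what differs with age, and control against young sets 2 libraries of the same labelled age side by side. Among the 9 genes, *Cd177* was higher and *Camp* lower in old than in young by 1.5 times or more, which is 2 of 9, where 15.0% of 5580 genes tested passed that limit (5.13% higher and 9.89% lower). Between control and young 0 of 9 passed, where 6.25% of genes did (2.63% higher in control and 3.62% lower). Between old and control 1 of 9 passed, *Cd177*, where 14.2% of genes did (5.39% higher in old and 8.83% lower). The 3 comparisons share their libraries. The medians of the 9 log2 ratios were 0.08, 0.08 and 0.09 for old over young, control over young and old over control, beside -0.08, -0.01 and -0.08 for all genes tested.

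*Cd177* stood at 776 CPM in old, 508 in control and 441 in young. The log2 ratio of old to young was 0.81 (95% counting interval 0.80 to 0.83), and old was higher in 7 of 7 intervals of *Mpo* and *Retnlg*. It was 1.84 in cells with 100 or more *Mpo* (1.57 without the low-UMI group), where the young level was at the background of NK and T cell-like cells and no such background was measured in old, so that the size of this ratio cannot be read. It was 1.31 between 30 and 100 and 0.45 to 0.61 in the last 3 intervals. It was 0.16 in cells with low *Mpo* and no *Retnlg*, where old had 17 cells. Old cells also carried *Cd177* above control in all 7 (log2 ratio 0.61 overall). With the 7 intervals weighted equally, old over young was 0.58, just under the limit.

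*Camp* lay the other way, at 37229 CPM in old, 52812 in control and 57764 in young. The log2 ratio of old to young was -0.63, with old lower in 7 of 7 intervals and past 1.5 times in 6 of them. Against control it was -0.50, again lower in all 7. Control lay below young by 0.13 on the log2 scale and in 6 of 7 intervals, so control stood between the other 2 libraries. With the other blood cells kept in the sums the ratio of old to young was -0.53, and in UMIs per cell -0.37, both under the limit.

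*Lcn2* (log2 ratio 0.54) and *Hp* (0.51) were higher in old than in young in all 7 intervals and stayed under the limit. Both were also higher in control than in young in all 7 (0.30 and 0.41), and old over control was 0.24 and 0.09. *Chil3* was higher in control than in both others, by 0.35 against young in 7 of 7 intervals, and old lay below control by 0.42 in 7 of 7. *Lyz2* was lower in old than in young (-0.32, 6 of 7 intervals). *Ltf* (0.18), *Pglyrp1* (0.08), *Ngp* (0.01) and *Chil3* (-0.07) had ratios of both signs among the intervals of old over young.

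The sum of the 9 genes had a log2 ratio of -0.18 for old over young, 0.01 for control over young and -0.19 for old over control. In UMIs per cell it was 0.08 and 0.14 for the comparisons with old, so the direction of the sum depends on the scaling. Per cell, *Cd177* (1.08), *Lcn2* and *Hp* passed 1.5 times in old over young. That scale raises the ratio of every gene by the same amount, since old cells carried more UMIs. *Lcn2* and *Hp* passed only with this shift, and the share of all genes past the limit per cell is not given here. On the CPM scale *S100a8* and *S100a9*, the 2 most abundant genes, had log2 ratios of 0.00 and 0.03 for old over young.

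**Figure D5:**
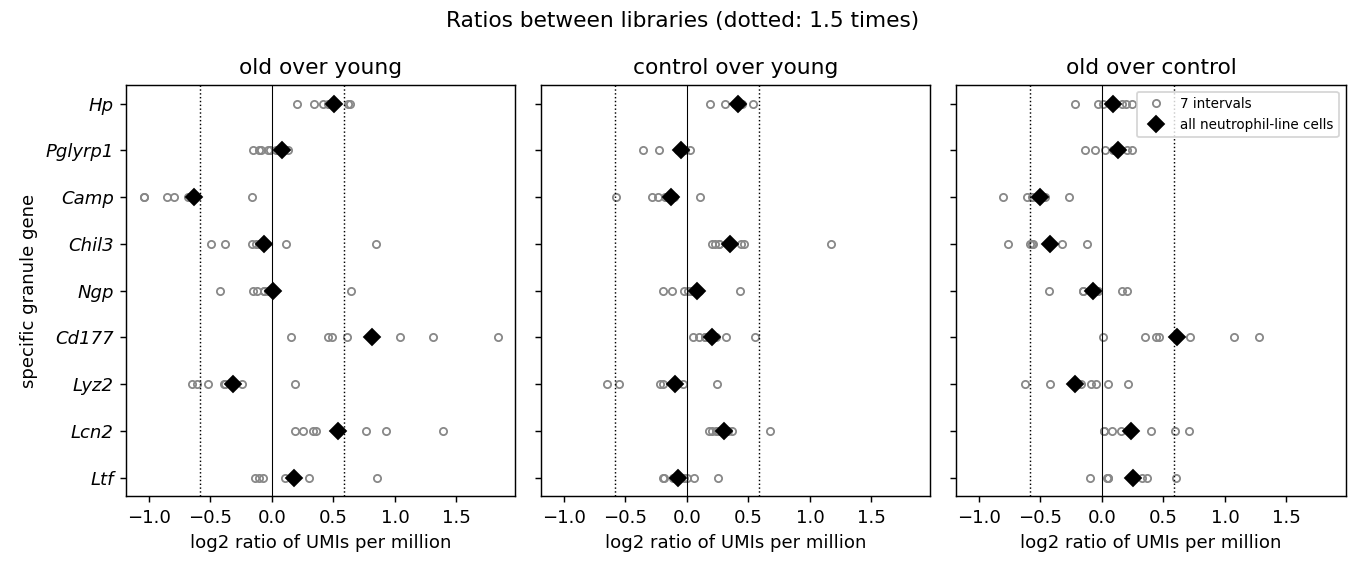
Log2 ratios of CPM between libraries (x axis) for each gene, in all neutrophil-line cells (diamonds) and in each of 7 intervals of *Mpo* and *Retnlg* (circles), with dotted lines at 1.5 times. *Cd177* lies right of 0 and *Camp* left of 0 in all intervals of old over young, at 0.81 and -0.63 overall.

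The ratio of *Camp* to *Ngp* UMIs does not depend on how counts are scaled. It was 0.944 in control (95% counting interval 0.943 to 0.945), 1.09 in young and 0.698 in old. In young, with background included, it went from 1.70 at 100 or more *Mpo* UMIs to 0.948 in cells with 30 or more *Retnlg*, in control from 1.36 to 0.875 and in old from 0.976 to 0.512. Old was lowest in each of the 7 intervals and young highest. The cells set aside as other blood types (76, 778 and 64 cells) had ratios of 0.952 in control, 1.14 in young and 0.800 in old. Background in these cells would carry the ratio of its own library, so these values are no separate evidence for the order. The part of background was not tested.

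The genes whose levels followed those of the members most closely were sought by a fixed rule. Over 21 points (7 intervals in 3 libraries), the log2 level of the summed list was most like that of *Cybb*, the membrane subunit of the NADPH oxidase, among 2980 other genes (Pearson r = 0.98). *Lyz2* was also most like *Cybb* (0.98), *Ngp* most like *S100a9* (0.98), *Lcn2* and *Cd177* most like *Chil1* (0.99 and 0.98), *Ltf* most like *Degs1* (0.99), *Pglyrp1* most like *Plp2* (0.99), *Camp* most like *Ceacam1* (0.95), *Chil3* most like *Inhba* (0.96) and *Hp* most like *Plscr1* (0.92). The points share libraries and depth, so these values are descriptions. Within the list, *Lcn2* and *Cd177* were most alike (0.98) and *Camp* and *Hp* least (0.41).

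Cell by cell, among low-*Mpo*, low-*Retnlg* cells thinned to 3000 UMIs, *Ltf* and *Lcn2* went together most closely, with r = 0.62 over 6642 control cells, 0.65 over 4100 young cells and 0.53 over 4846 old cells. For *Camp* and *Ngp* r was 0.31, 0.22 and 0.44. Cells of 1 library are no replicates, and these values are descriptions too.

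A fixed list of 19 other specific granule genes was followed beside the members. It held *Mmp8*, which is counted again among the gelatinase and late genes below. In cells with low against high *Mpo*, 8 of 14 tested in control, 10 of 14 in young and 11 of 15 in old were higher by 1.5 times, among them *Cybb*, *Cyba*, *Itgam* and *Itgb2*, and 2, 3 and 2 were lower. Of all genes tested, 11.7%, 9.39% and 12.2% were higher by that limit. Between old and young, 4 of 15 tested were higher (*Mmp8*, *Adam8*, *Fpr1* and *Lrg1*) and 1 lower (*Stom*), beside 5.13% and 9.89% of all genes. *Lrg1*, which encodes a leucine-rich glycoprotein, stood at 1429 CPM in old, 733 in control and 413 in young, a log2 ratio of 1.79 for old over young, and was higher in old in 7 of 7 intervals. *Lrg1* thus showed the order of libraries seen in *Cd177*. Between control and young, 2 of 13 were higher (*Orm1*, *Lrg1*) and 2 lower (*Mmp8*, *Stom*), beside 2.63% and 3.62% of all genes, and 5 of 15 were higher in old than in control (*Mmp8*, *Slpi*, *Adam8*, *Fpr1*, *Lrg1*), beside 5.39% of all genes.

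*Cebpe*, the factor required for specific granules, stood at 577 CPM in control, 730 in young and 531 in old cells with 100 or more *Mpo*, and at 979, 1141 and 1021 between 10 and 30. It then stood at 564, 763 and 436 in cells with 30 or more *Retnlg*. It was thus lower at both ends of the series of intervals than between them. Over all cells it was 960, 1084 and 912 in control, young and old, and young was highest in 7 of 7 intervals against either library, with log2 ratios of -0.25 for old over young and -0.18 for control over young. *Cebpa*, which acts earlier in granulocyte differentiation, stood at 49.6, 52.1 and 43.1 at high *Mpo* and at 4.97, 4.76 and 5.54 in the last interval. Of 5 regulators tested, *Cebpa* was lower in old than in young (6.79 against 14.7, log2 ratio -1.12) and than in control (13.1). Of all genes, 9.89% and 8.83% were lower in these comparisons. None of the 5 passed 1.5 times between control and young, where 6.25% of all genes did. Old cells held the smallest share of cells with 100 or more *Mpo* (0.977%, against 2.97% in control and 7.92% in young), and the part of that mix in *Cebpa* was not tested.

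The neighbouring granule classes gave the frame. Of 4 azurophil genes, *Mpo* and *Elane* were lower in old than in young, *Elane* was lower in old than in control, and 0 of 4 passed between control and young, beside 9.89%, 8.83% and 3.62% of all genes that were lower. All 3 gelatinase and late genes (*Retnlg*, *Mmp8*, *Mmp9*) were higher in old than in both other libraries, beside 5.13% (young) and 5.39% (control) of all genes, and *Retnlg* and *Mmp8* were lower in control than in young. Within the 7 intervals, old over young went both ways: *Mmp8* was higher in 3 and lower in 4, and *Mmp9* was higher in 4 and lower in 3. *Mpo* was higher in 3 and lower in 4, but the intervals are cut on *Mpo* itself. Its level within them is thus bounded in advance, and this count cannot show whether *Mpo* differed at a given stage. Cells with 30 or more *Retnlg* made up 12.6% of old, 4.35% of young and 2.57% of control cells. With the 7 intervals weighted equally in each library, old over young was -0.78 for *Camp*.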

How the data were processed

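Single CD133+ cells of mouse bone marrow were profiled in 3 libraries with a 3′ droplet kit of 10x Genomics. The deposited files hold whole-number UMI counts per gene and cell. The authors made them with Cell Ranger 2.1.0, which aligns with STAR, on mm10 according to the submitters' processing notes, and whether depth was equalised between libraries is not given in the sources used here. Barcodes carry a different suffix in each library.

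Cells with at least 200 genes and at most 20% mitochondrial UMIs were kept, and then those between the 5th and 95th percentile of UMIs (control on its own, young and old together). Each library was clustered (Leiden, resolution 1, 20 components, 2000 variable genes, the 9 genes held out) only to set aside other blood cells. A cluster was set aside when at least 3 markers of another cell type reached 10 CPM and 10 times their level elsewhere. The condition that 3 of them were not haemoglobin genes was added after the clusters were seen. Doublets were not removed, and leaving out the 5% of cells with the highest Scrublet score was an alternative.

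Counts were summed over cells and divided by all UMIs. Intervals are 95% exact Poisson or binomial ones and cover counting error only. Each group is 1 library, so no p-value is given, and a gene was called when it differed by 1.5 times and reached 10 CPM in 1 of the compared libraries or more. The *Mpo* level at 50% was interpolated over 11 intervals of *Mpo*. The 9 genes, the lists and the rule for likeness (the non-member genes with the highest correlation of log2(CPM + 10) among those with at least 50 CPM) were chosen with earlier results of these data known. *Cebpd* was not analysed here. The sums were tested on simulated data. Promoters came from RefSeq (8 of 9 genes matched) and positions from GENCODE. Scripts ran in Python 3.11.15 with scanpy 1.11.5, leidenalg 0.10.2, scipy 1.17.1 and numpy 2.4.6.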

Additional observations from a re-analysis of the deposited data

How the results depend on the processing

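No paired analysis was possible because each group is 1 library. The log2 ratio of the summed 9 genes for old over young, -0.18 as reported, was -0.21 without trimming of UMI counts, -0.20 with percentiles taken within each library, -0.089 with other blood cells kept, -0.22 with the 9 genes, *S100a8* and *S100a9* left out of the total, 0.083 in UMIs per cell, -0.32 with the 7 intervals weighted equally and -0.18 without the cells of highest Scrublet score. Control over young, 0.01 as reported, was -0.023, 0.0015, 0.10, 0.0077, -0.053, -0.052 and 0.0085 under these 7 alternatives in the same order. Old over control, -0.19 as reported, was -0.18 without trimming, -0.20 within libraries, -0.23 with the 11 genes left out of the total, 0.14 per cell, -0.27 with equal weights and -0.19 without the cells of highest Scrublet score. Chosen after seeing the data, leaving out the low-UMI group gave -0.18 for old over young and -0.20 for old over control, and setting aside the groups with haemoglobin markers alone gave -0.27 and -0.28. Of the 2 genes past 1.5 times between old and young, 1 (*Camp*) was left with equal weights and 0 passed 2 times. With other blood cells kept there were also 2, but these were *Lcn2* and *Cd177*. For old against control the count of 1 became 0 with the 11 genes left out, 0 with equal weights, 0 with the haemoglobin groups set aside, 0 at 2 times and 2 per cell (*Ltf* and *Cd177*). The causes were not tested. Over all genes, the 838 calls between old and young became 1267 with the 11 genes left out of the total, 274 at 2 times and 218 at 50 CPM. The 347 between control and young became 120 and 101, and the 776 between old and control 186 and 213, at these 2 limits. With the 11 genes left out of the total, the limit of 10 CPM let in genes of lower level. The counts of 1267 and 838 are thus not at the same limit. Calls higher in old than in young were 34.1% of calls, 22.8% with other blood cells kept, 74.4% per cell, 44.2% at 2 times and 53.7% at 50 CPM. For control over young 42.1% became 19.4% with other blood cells kept, 27.6% per cell and 54.0% with equal weights, and for old over control 37.9% became 89.6% per cell, 50.5% with equal weights and 49.9% with the haemoglobin groups set aside. Scaling per cell moved the log2 ratios of all genes together. Their median went from -0.08 to 0.19 for old over young and from -0.08 to 0.25 for old over control. The members past 1.5 times per cell are thus not read as a result about the list. Of 243 ratios of single members under alternatives, 231 kept their sign. All 9 genes were higher at low *Mpo* in each library under all 8 alternatives run. In young, low values at high *Mpo* stood near or below those of NK and T cell-like cells. Free RNA itself was not measured, and no separate group of such cells was found in control or old.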
